A study of Homo sapiens with 30 samples.

Results

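NELF-C was depleted with siRNA in T47D, an established human cell line of luminal breast cancer with active hormone receptors, and gene levels were compared with those of T47D cells given a control siRNA. The comparison used the gene-level arrays labelled siNELF-C (3 arrays) and siControl (3 arrays), chosen by these labels alone, which are 6 of the 15 gene-level arrays in the study. The control siRNA is directed against luciferase, an insect enzyme that the cells lack, and both groups were transfected. Each siRNA was used at 10 nM, the medium was changed after 48 h and the cells were grown for another 48 h. The other arrays were of cells given siRNA against NELF-A, NELF-B or NELF-E, 3 arrays each, and they are used here only to show where siNELF-C cells differed from them. The series text describes the arrays of a group as technical repeats, so every p-value below measures the spread between repeats and not between cultures. The labels give one siRNA name per subunit and name no untransfected cells.

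The negative elongation factor, or NELF, consists of 4 proteins and holds RNA polymerase II a short way past the transcription start until the kinase P-TEFb releases it into productive elongation. NELF-C and its shorter form NELF-D are made from 1 gene, NELFCD, and lie in the core of the complex, where they contact NELF-A. In breast epithelium, NELF is known as a cofactor that limits oestrogen-induced transcription, and it also takes part in the 3′ processing of replication-dependent histone mRNAs.

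Levels are the deposited log2 values of each transcript cluster, which is the array's unit for a gene, so that a difference of 1 is a 2-fold change. A gene was called when limma gave an adjusted p below 0.05 over all 22011 clusters and the change was at least 1.5-fold. By this rule 3281 clusters were lower in siNELF-C cells (14.9% of those tested) and 500 were higher (2.27%). The 3 siNELF-C arrays all lay below the 3 control arrays in 31.3% of clusters and all above them in 15.1%. The 3 siNELF-C arrays had a narrower spread of values than the 3 control arrays, with interquartile ranges of 3.73, 3.62 and 3.75 in siNELF-C cells against 4.04, 3.95 and 4.12 in control cells. The median change was -0.30 and -0.27 in the highest 2 of 5 level classes, and 0.05 and 0.09 in the lowest 2 classes. The split of the calls moved with the scaling: 13.2% of the called clusters were higher as deposited, 42.2% after quantile normalization, 34.7% after centring each array on its median and 73.8% after centring on its 75th percentile. These scalings shifted the median change of all clusters by 0.13, 0.14 and 0.35. For this reason each gene group is also counted by the members called in the same direction as deposited and after each of the 3 other scalings, a rule chosen after the values were seen. Background signal was not measured, so where 1 group lay below the 40th percentile of all gene means (3.92) the fold may differ from that of the transcript. Under these 4 scalings 1260 clusters were lower (5.72%) and 487 were higher (2.21%). All 3 shifts were upward, which favours keeping a higher call and losing a lower one. Of the 500 higher calls 487 were kept, and of the 3281 lower calls 1260 were. A higher call kept under the 4 scalings is therefore little further support.

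**Figure D1:**
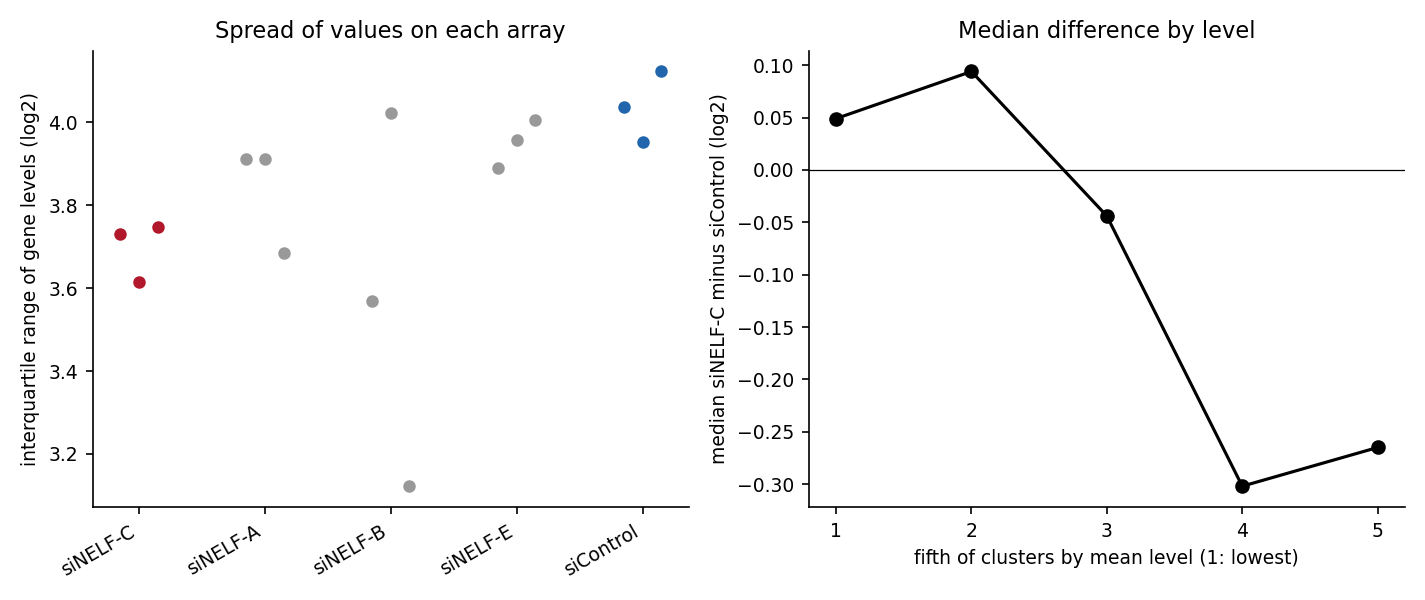
The left panel plots the interquartile range of the log2 gene levels of each array, by group, and the right panel plots the median log2 change, siNELF-C minus siControl, in 5 classes of gene level. The siNELF-C arrays lie at 3.62 to 3.75 against 3.95 to 4.12 for siControl, and the median change is -0.30 and -0.27 in the highest 2 classes.

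The siRNA target was examined first. NELFCD (transcript cluster 3891278) had levels of 5.92, 5.61 and 5.97 on the siNELF-C arrays, against 9.33, 9.19 and 9.23 on the control arrays. The groups were far apart, and the fall in siNELF-C cells was 10.7-fold (change of -3.42 on the log2 scale with an SE of 0.126, limma adjusted p = 0.000117). It was also lower in siNELF-C cells than in siNELF-A cells (difference -2.76) and siNELF-E cells (-3.81), where it is not the target. On the exon-level arrays, 22 of its 26 probe sets, which are small groups of probes in 1 exon region, were called lower. Over all probe sets on the array, 6.74% were called lower and 1.11% higher. These 22556 calls became 111 without siControl replicate 3, 1249 without siControl replicate 2 and 1933 without siControl replicate 1, and 6288 to 13979 without 1 of the siNELF-C arrays. The median of the 26 probe sets fell 13.1-fold (adjusted p = 3.21e-05). One NELFCD probe set, 3891281, did not follow the others, with levels of 11.54, 10.96 and 10.99 in siNELF-C cells against 11.14, 10.23 and 10.20 in control cells. Its groups overlapped, and relative to the rest of the gene it was 15.4-fold higher (diffSplice adjusted p = 5.20e-18). Whether this probe set measures NELFCD transcripts was not tested.

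Of the other subunits, NELF-E and NELF-A were measured as the median of their probe sets. NELFE, which encodes the RNA-binding subunit, had a median of 6.94, 6.65 and 6.71 in siNELF-C cells, against 7.29, 7.22 and 7.27 in control cells. The groups did not overlap, but the difference of 1.41-fold (log2 change -0.49, limma adjusted p = 0.0405) was below the 1.5-fold minimum. NELFA, which encodes the partner of NELF-C in the complex, had 6.43, 6.19 and 6.29 in siNELF-C cells and 6.25, 6.14 and 6.34 in control cells, with overlapping groups (log2 change 0.07, adjusted p = 0.780). NELFB is not analysed here.

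**Figure D2:**
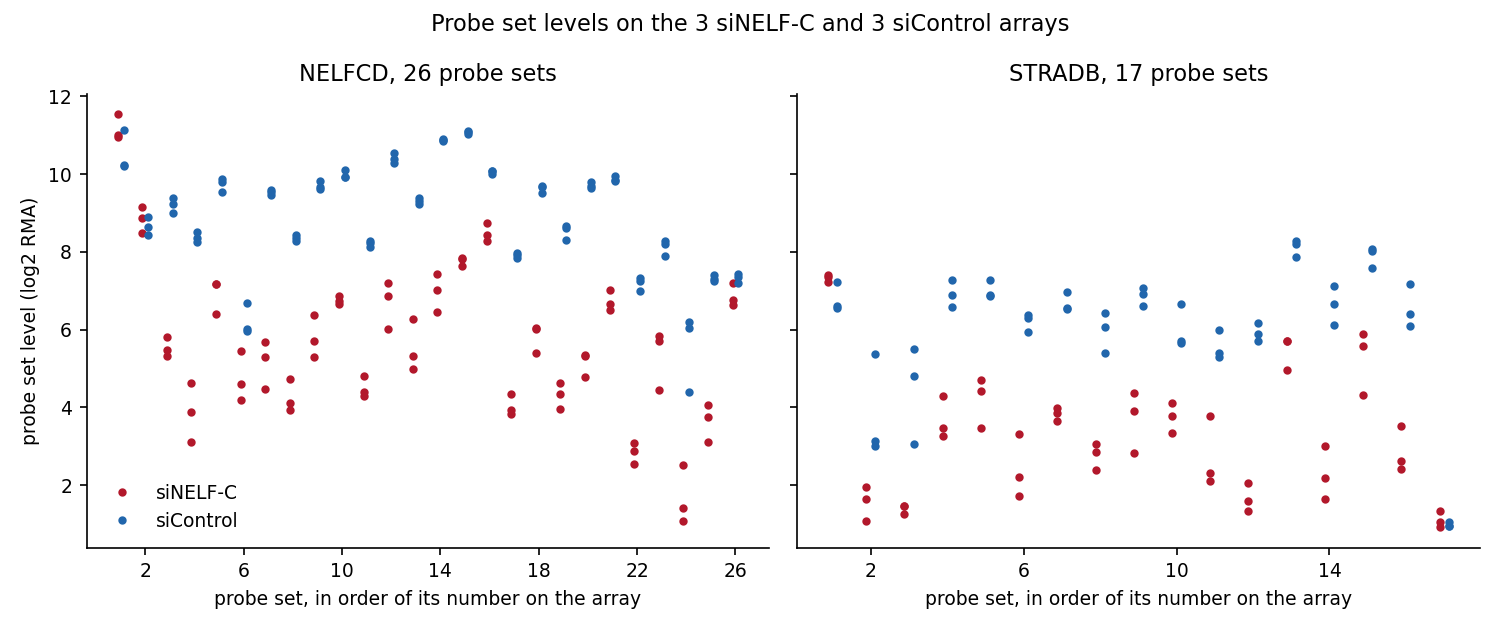
Points give the log2 level of each exon-level probe set of NELFCD (26 probe sets, left) and STRADB (17 probe sets, right) on each of the 3 siNELF-C arrays (red) and 3 siControl arrays (blue), in order of probe set number. In NELFCD 22 probe sets and in STRADB 14 probe sets were called lower, and the first and last probe sets of each gene were not called.

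The identity of the cells was checked with marker lists. Luminal markers were present at high levels: the keratin gene KRT8 had 12.67, 12.63 and 12.55 in siNELF-C cells and 12.54, 12.18 and 12.27 in control cells, and KRT19 had 11.29, 11.26 and 11.21 in siNELF-C cells and 11.55, 11.31 and 11.54 in control cells. Neither keratin was called. Of 23 luminal genes measured, 6 were lower in siNELF-C cells (26.1%, against 14.9% of all clusters) and 2 were higher (8.7%, against 2.27%). Under the 4 scalings 2 in each direction held (8.7% each, against 5.72% lower and 2.21% higher of all clusters). These were GRHL2 and ERBB3 on the lower side, an epithelial transcription factor and a receptor tyrosine kinase, and KRT7 and ERBB2 on the higher side, a simple epithelial keratin and the HER2 receptor. Low levels in both groups, below the 40th percentile, were found for 6 of 12 basal and 14 of 18 mesenchymal markers. Other basal markers lay above it, such as CD44 (means 6.90 in siNELF-C and 6.67 in control cells) and ITGB4 (6.75 and 6.63), and neither was called. Among the 12 basal markers TRIM29 was higher, among the 18 mesenchymal markers FN1 (fibronectin) was lower, and limma called 0 of 11 endothelial and 0 of 14 leukocyte markers, with 3 of each at an unadjusted p below 0.05. Of these markers 8 and 10 lay below the 40th percentile of all gene means (3.92).

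The largest decreases were in genes of the antiviral interferon response. These genes are normally switched on when interferon, or viral RNA sensed inside the cell, leads to binding of transcription factors at a short element called ISRE. The promoters of 3 of the genes that fell most are shown because they hold this element more than once. Each line gives 200 bases up to the transcription start (RefSeq, GRCh38.p14), at chr10:89392423-89392622 on the plus strand, chr1:27672193-27672392 on the minus strand and chr14:94110536-94110735 on the plus strand, with matches to the ISRE core GAAANNGAA on either strand in capitals.
IFIT1: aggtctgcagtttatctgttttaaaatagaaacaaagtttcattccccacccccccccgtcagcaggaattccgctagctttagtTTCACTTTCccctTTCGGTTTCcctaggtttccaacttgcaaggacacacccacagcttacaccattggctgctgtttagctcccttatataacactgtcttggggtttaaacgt
IFI6: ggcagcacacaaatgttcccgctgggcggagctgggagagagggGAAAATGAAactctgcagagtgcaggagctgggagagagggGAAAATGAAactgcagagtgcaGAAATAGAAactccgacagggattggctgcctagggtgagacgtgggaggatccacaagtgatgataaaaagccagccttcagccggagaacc
IFI27: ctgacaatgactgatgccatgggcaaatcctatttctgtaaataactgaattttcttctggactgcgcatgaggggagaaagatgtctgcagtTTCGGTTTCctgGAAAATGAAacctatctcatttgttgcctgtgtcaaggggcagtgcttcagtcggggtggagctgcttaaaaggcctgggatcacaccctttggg
The matches began 115 and 102 bases before the start in IFIT1, 156, 115 and 93 bases before it in IFI6, and 107 and 95 bases before it in IFI27. Within 250 bases upstream, the core was found in 22 of the 33 interferon effector genes that have a promoter in the RefSeq table (66.7%) and in 7.06% of all 27305 promoters there. It was found in 15 of 24 effectors called lower (62.5%) and in 7 of the 9 that were not (77.8%). In the interferon signalling and RNA sensing list it was found in 2 of 15 promoters (13.3%). A match describes these letters only.

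IFIT1, whose protein binds viral RNA that lacks the host's cap methylation, had levels of 4.13, 4.41 and 4.43 in siNELF-C cells, against 9.25, 9.20 and 9.58 in control cells. The groups stood far apart, and IFIT1 fell 32.5-fold (log2 change -5.02, SE 0.146, limma adjusted p = 3.37e-05), the largest fall of any named gene. MX1, a GTPase that blocks influenza and related viruses, had 5.71, 5.58 and 5.64 in siNELF-C cells and 9.32, 9.37 and 9.53 in control cells. It fell 13.6-fold (log2 change -3.77, adjusted p = 3.37e-05), and 20 of 21 probe sets were called lower. OAS2, one of the enzymes that make the 2-5A signal for RNA degradation, had 3.55, 3.44 and 3.47 in siNELF-C cells and 7.20, 6.98 and 7.11 in control cells, and fell 12.2-fold (adjusted p = 3.37e-05). For each of these genes the highest siNELF-C array lay more than 3 log2 units below the lowest control array.

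Of 39 effectors measured, 27 were called lower (69.2%, against 14.9% of all clusters), with a median log2 change of -1.27 against -0.08 over all clusters. Under the 4 scalings 21 were lower (53.8%, against 5.72%). In 32 of the 39 the siNELF-C arrays all lay below the control arrays, against 31.3% of all clusters. Another 4 of the 43 listed effectors had no cluster of their own and were not measured. The related OAS3 and OAS1 fell by 2.66 and 2.65. IFI6, a mitochondrial and endoplasmic reticulum protein that protects cells from apoptosis, fell by 3.27, and IFIT3, an IFIT1 partner, fell by 3.09. IFITM1, which restricts virus entry at membranes, fell by 2.85, and IFI27 fell by 2.56. ISG15, the ubiquitin-like modifier usually counted among the most inducible of these genes, was not called. It had 5.14, 5.72 and 4.88 in siNELF-C cells and 5.15, 5.47 and 4.97 in control cells, with overlapping groups (log2 change 0.05).

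The signalling layer above the effectors was also lower in part. Of 23 genes of interferon signalling and RNA sensing, 11 were lower (47.8%, against 14.9% of all clusters). Under the 4 scalings 7 were lower (30.4%, against 5.72%). IRF9, a transcription factor of the interferon response, had 5.22, 5.11 and 5.23 in siNELF-C cells and 7.41, 7.05 and 7.38 in control cells, and fell 4.27-fold (adjusted p = 0.000569). EIF2AK2, the kinase PKR that stops translation on sensing double-stranded RNA, fell by 2.30, and the RNA sensor gene RIGI fell by 1.76. IFNAR1, a chain of the type I interferon receptor, had 6.09, 5.83 and 6.14 in siNELF-C cells and 6.96, 6.90 and 7.06 in control cells, and fell 1.93-fold (adjusted p = 0.00275). The adaptor MAVS and the kinase gene TBK1, which pass the RNA signal on, were not called (log2 changes -0.28 and -0.56). Of 14 antigen processing genes, 5 were lower as deposited (35.7%, against 14.9% of all clusters), among them PSMB8 and TAPBP. None of the 5 was called under each of the 4 scalings.

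The arrays of the other knockdowns place these values. IFIT1 had 5.19, 4.91 and 5.21 in siNELF-A cells, 4.196, 4.63 and 3.42 in siNELF-B cells and 3.88, 4.04 and 4.13 in siNELF-E cells, so that the control arrays stood above all 12 knockdown arrays. MX1 had 5.64, 5.59 and 5.62 in siNELF-A cells, 5.66, 5.79 and 4.66 in siNELF-B cells and 5.51, 5.61 and 5.28 in siNELF-E cells, again all below the control arrays. Against siNELF-A cells, 1 effector was lower and 1 was higher in siNELF-C cells (median difference 0.06 over the list), and against siNELF-E cells 5 were lower and 1 was higher (median -0.04). The 4 knockdowns share 1 control group, and no untransfected cells are named. A lower level in siNELF-C cells and a higher level in cells given this control siRNA therefore cannot be told apart.

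**Figure D3:**
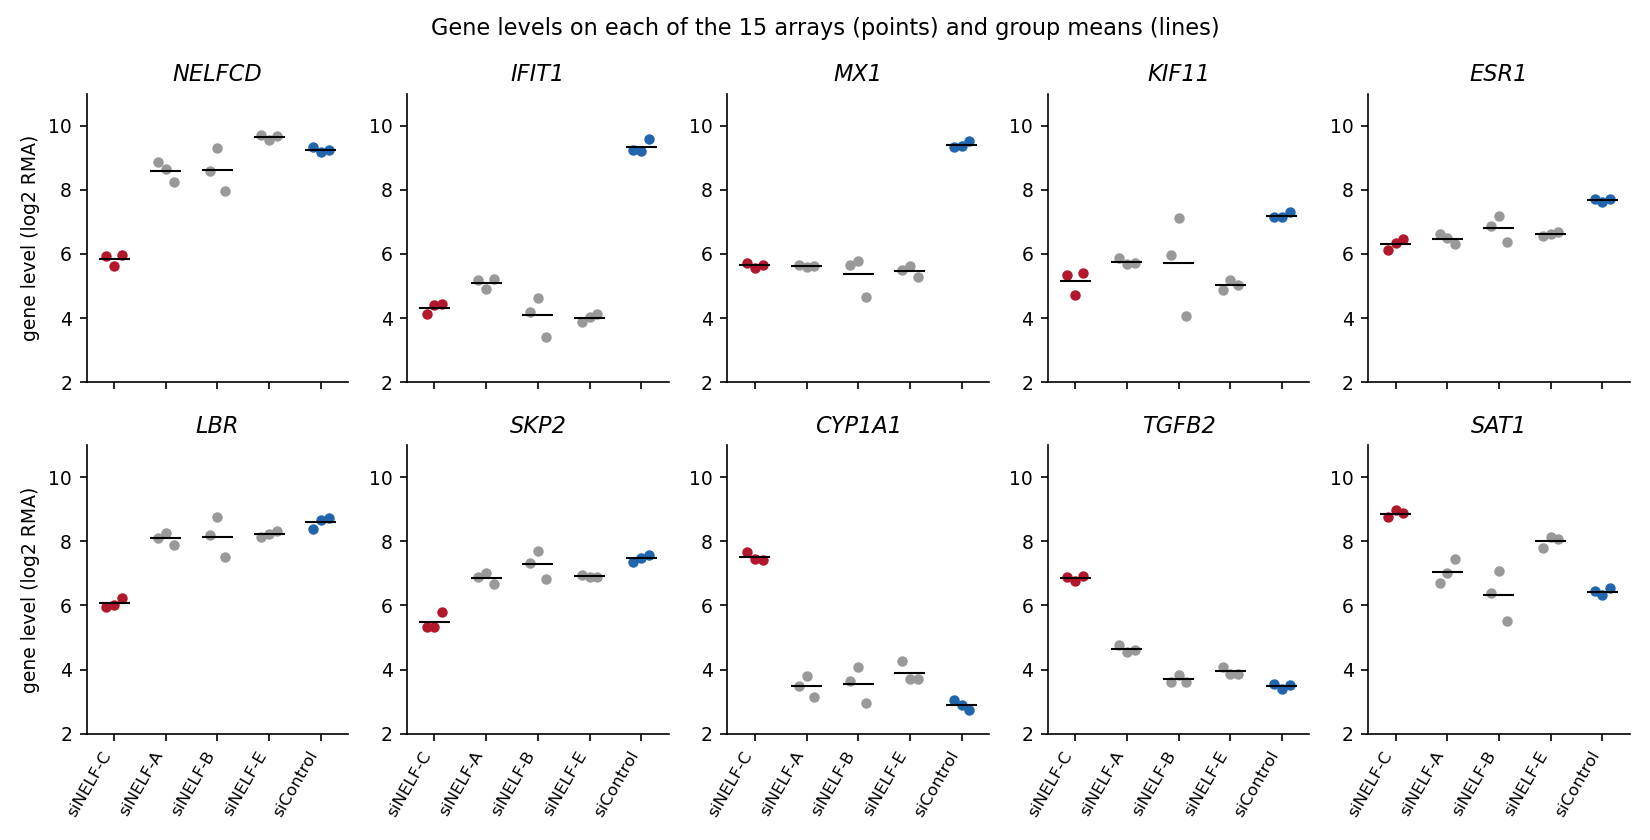
Each panel plots the log2 level of 1 gene on every array, grouped from left to right as siNELF-C, siNELF-A, siNELF-B, siNELF-E and siControl, with a line at each group's mean. IFIT1 and MX1 are high on the control arrays only, whereas LBR, SKP2, CYP1A1, TGFB2 and SAT1 have siNELF-C arrays that stand apart from every siControl, siNELF-A and siNELF-E array.

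The second large group of decreases was in cell cycle genes. Mitotic genes are switched on late in the cycle by the MuvB, MYB and FOXM1 complexes, which act through CCAAT boxes and the CHR element, whereas S-phase genes are switched on earlier by E2F factors. The promoters of CCNB2, a mitotic cyclin, and MCM6, a subunit of the replicative helicase, are shown as 1 example of each kind, at chr15:59104946-59105145 on the plus strand and chr2:135876444-135876643 on the minus strand (RefSeq, GRCh38.p14). Capitals mark CCAAT and the CHR core TTTGAA in CCNB2, and the E2F motifs TTCCCGC or TTGGCGC in MCM6, on either strand.
CCNB2: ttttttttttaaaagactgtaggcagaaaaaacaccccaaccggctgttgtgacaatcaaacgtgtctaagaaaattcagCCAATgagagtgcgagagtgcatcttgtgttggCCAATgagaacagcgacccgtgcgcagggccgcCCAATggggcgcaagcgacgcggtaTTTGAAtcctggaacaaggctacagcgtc
MCM6: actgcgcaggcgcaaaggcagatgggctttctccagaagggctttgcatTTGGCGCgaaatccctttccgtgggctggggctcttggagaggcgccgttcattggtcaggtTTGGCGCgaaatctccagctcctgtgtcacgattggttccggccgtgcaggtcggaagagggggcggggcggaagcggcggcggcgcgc
In CCNB2 the CCAAT boxes began 120, 87 and 54 bases before the start and the CHR core 29 bases before it. In MCM6 the E2F motifs began 151 and 89 bases before the start. Within 250 bases upstream, the CHR core was found in 18 of 39 mitotic genes (46.2%) against 13.6% of all promoters, and in 0 of 32 S-phase genes. A CCAAT box was found in 29 of the 39 mitotic genes (74.4%) against 33.0% of all promoters, and in 18 of the 32 S-phase genes (56.2%). An E2F motif was found in 14 of the 32 S-phase genes (43.8%) against 7.95% of all promoters, and in 8 of the 39 mitotic genes (20.5%). Among promoters of measured genes the shares were 10.4% for the CHR core, 34.7% for a CCAAT box and 11% for an E2F motif. By response, the E2F motif was found in 11 of 28 S-phase genes called lower (39.3%) and in 3 of the 4 that were not. The MCM6 promoter also holds CCAAT boxes on the other strand, which are not marked. No marked match shares letters with another in these 2 promoters, and a match describes these letters only.

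Mitosis and spindle genes were lower almost as a whole. Of 47 measured, 45 were called lower (95.7%, against 14.9% of all clusters), with a median log2 change of -1.31. Under the 4 scalings 43 were lower (91.5%, against 5.72%). The siNELF-C arrays lay below the control arrays in all 47, against 31.3% of all clusters. Another 11 of the 58 listed genes were not measured. KIF11, the motor that separates the spindle poles, had 5.34, 4.71 and 5.42 in siNELF-C cells and 7.14, 7.15 and 7.30 in control cells. The groups did not overlap, and it fell 4.11-fold (SE 0.195 on the log2 scale, limma adjusted p = 0.00143). SPC25, part of the NDC80 kinetochore complex, had 3.12, 2.73 and 3.02 in siNELF-C cells and 4.90, 5.43 and 5.95 in control cells, and fell by 2.47. HMMR, a spindle-assembly protein, fell by 2.11, and KIF14, a kinesin of cytokinesis, fell by 2.10. The checkpoint gene BUB3 and the spindle-pole gene ASPM were the 2 members not called, with log2 changes of -0.37 and -0.48. BIRC5, which encodes survivin, a member of the chromosomal passenger complex and an apoptosis inhibitor, had 6.67, 6.79 and 6.74 in siNELF-C cells and 8.28, 8.12 and 8.31 in control cells and fell 2.84-fold.

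Genes of S phase were lower too, by less. Of 37 genes of the replication fork, 32 were lower (86.5%, against 14.9% of all clusters), with a median change of -0.97. Under the 4 scalings 21 were lower (56.8%, against 5.72%). DTL, the adaptor that directs the licensing factor CDT1 to degradation, had 6.95, 6.73 and 7.24 in siNELF-C cells and 8.73, 8.81 and 8.90 in control cells, and fell 3.58-fold (adjusted p = 0.00101). POLE2, a subunit of the leading-strand polymerase, fell by 1.66. MCM6, whose promoter is shown above, had 6.40, 6.11 and 6.46 in siNELF-C cells and 7.60, 7.75 and 8.05 in control cells, and fell 2.79-fold (adjusted p = 0.00179). The groups did not overlap for any of these genes. CDT1 itself (log2 change -0.49) and the single-strand DNA binding gene RPA1 (-0.46) were not called.

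Nucleotide supply and repair followed. Of 12 nucleotide supply genes, 9 were lower (75%, against 14.9% of all clusters) and 5 were lower under the 4 scalings (41.7%, against 5.72%). RRM2, the regulated subunit of ribonucleotide reductase, had 9.32, 9.37 and 9.66 in siNELF-C cells and 10.36, 10.67 and 10.69 in control cells, and fell by 1.12. Of 27 genes of recombination and crosslink repair, 22 were lower (81.5%), 15 of them under the 4 scalings (55.6%). EXO1, a nuclease that resects DNA ends, had 5.87, 5.37 and 5.80 in siNELF-C cells and 7.32, 7.46 and 7.55 in control cells, and fell 3.4-fold. The helicase BRIP1 fell by 1.67 and FANCI, which is ubiquitinated at crosslinks, fell by 1.66.

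Replication-dependent histone genes are of separate interest because NELF takes part in the 3′ end processing of their mRNAs. Of 43 measured, 29 were lower (67.4%, against 14.9% of all clusters), with a median change of -0.91. Under the 4 scalings 17 were lower (39.5%, against 5.72%). H4C3 had 8.05, 7.84 and 7.97 in siNELF-C cells and 9.46, 9.60 and 9.77 in control cells, and fell 3.15-fold (adjusted p = 0.000809). H4C8 and H2AC6 had the highest levels of the members not called (log2 changes -0.38 and -0.21). Some members at higher levels, such as H2AC21 and H1-4, were called lower. Histone genes of one type are near-identical copies, so the array may not assign signal to the right copy and single histone values are uncertain.

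Among the cell cycle regulators, 21 of 34 were lower (61.8%, against 14.9% of all clusters) and 2 were higher (5.88%, against 2.27%). Under the 4 scalings 15 (44.1%, against 5.72%) and 2 (5.88%, against 2.21%) held. SKP2, the F-box protein that sends the inhibitor p27 to degradation, had 5.32, 5.33 and 5.80 in siNELF-C cells and 7.36, 7.49 and 7.57 in control cells. The groups were well separated, and SKP2 fell 3.98-fold (SE 0.156 on the log2 scale, limma adjusted p = 0.000971). FOXM1, the transcription factor that drives mitotic genes, had 6.75, 6.65 and 6.85 in siNELF-C cells and 8.27, 8.02 and 8.17 in control cells, and fell 2.65-fold. CCNB2 fell by 1.47, and the phosphatase gene CDC25C, which activates the mitotic kinase CDK1, fell by 1.54. CDKN1A, which encodes the kinase inhibitor p21, was 1 of the 2 that rose, with 7.42, 7.20 and 7.44 in siNELF-C cells and 6.49, 6.50 and 6.47 in control cells (1.82-fold). The other was CDKN2B, the gene of the kinase inhibitor p15, named here after its values were seen. Cyclin D1 (CCND1) was not called (log2 change -0.58). In these bulk samples, fewer cells in a phase of the cycle and less RNA per cell cannot be told apart.

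The p53 target list, which also holds CDKN1A, had a share of lower genes near that of all clusters. Of 21 genes measured, 3 were lower (14.3%, against 14.9% of all clusters) and 2 were higher, and 1 and 2 held under the 4 scalings. MDM2, the ubiquitin ligase that p53 induces to limit itself, had 7.16, 6.50 and 6.89 in siNELF-C cells and 8.28, 8.31 and 8.23 in control cells, and fell 2.69-fold (adjusted p = 0.00242). BBC3, the apoptosis inducer PUMA, had 6.06, 6.27 and 5.97 in siNELF-C cells and 5.55, 5.38 and 5.14 in control cells, and rose 1.67-fold (adjusted p = 0.0112). TP53I3 and PLK2 had the highest levels of the members not called.

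Compared with the other knockdowns as deposited, the mitotic and S-phase genes of siNELF-C cells lay between siNELF-A and siNELF-E cells by their median differences. Interquartile ranges were 3.685 to 3.91 in siNELF-A and 3.89 to 4.01 in siNELF-E cells, against 3.62 to 3.75 in siNELF-C cells. Of the 47 mitotic genes, 17 were lower in siNELF-C than in siNELF-A cells, with a median difference of -0.52, and 21 were higher in siNELF-C than in siNELF-E cells, with a median difference of 0.66. Of the 37 S-phase genes, 12 were lower than in siNELF-A cells and 12 were higher than in siNELF-E cells (median differences -0.49 and 0.42). Replication-dependent histone genes did not show this order against siNELF-A cells, with 0 lower, 1 higher and a median difference of -0.02. Over all clusters, 8.16% were called against siNELF-A, 1279 of 1795 of them lower in siNELF-C cells, and 12.7% against siNELF-E, 2098 of 2786 of them lower. DTL shows the order: its siNELF-C arrays, given above, lay below 8.26, 8.41 and 7.97 in siNELF-A cells and above 5.90, 6.42 and 6.31 in siNELF-E cells (differences -1.24 and 0.76, adjusted p = 0.0103 and 0.0344). KIF11, in contrast, was called against neither, with differences of -0.61 and 0.12. SKP2 did not follow this order: it was lower in siNELF-C cells than in both (differences -1.37 and -1.42, adjusted p = 0.007 and 0.00223).

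**Figure D4:**
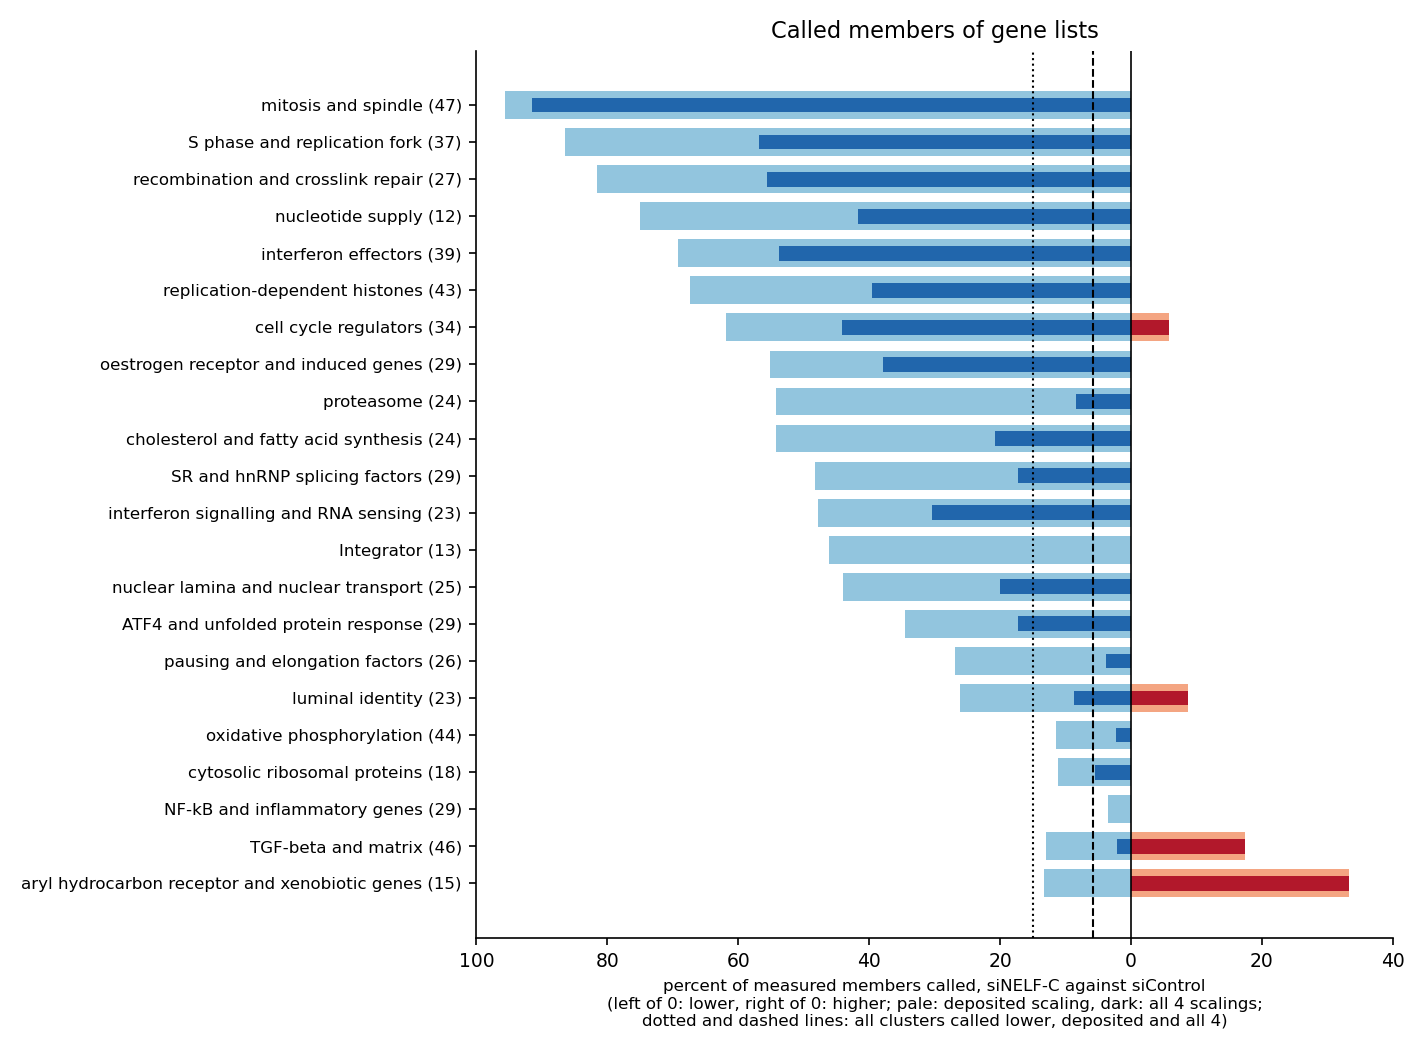
Bars give the percent of measured members of each gene list (number measured in brackets) that were called lower, to the left, or higher, to the right, in siNELF-C against siControl; pale bars are as deposited and dark bars are members called under the 4 scalings. The dotted and dashed lines mark the 14.9% and 5.72% of all clusters called lower. Mitosis and spindle keep 91.5% under the 4 scalings, Integrator keeps no call, and the xenobiotic list has its calls mainly on the higher side.

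Some of the largest decreases lay outside the interferon and cell cycle lists. ELOVL2, an elongase of polyunsaturated fatty acids, had 3.27, 3.55 and 3.74 in siNELF-C cells and 6.22, 6.08 and 6.39 in control cells, and fell 6.55-fold. SEMA6A, a membrane-bound semaphorin, had 4.02, 4.07 and 4.29 in siNELF-C cells and 6.62, 6.55 and 6.66 in control cells, and fell 5.58-fold. In both genes the groups were well apart. KPNA2, an importin alpha that carries proteins into the nucleus, had 5.32, 3.01 and 3.90 in siNELF-C cells and 6.49, 6.09 and 7.12 in control cells, so its siNELF-C arrays were scattered but all below the control arrays. Its fall of 2.49 (SE 0.57, limma adjusted p = 0.0204) lost its call without siControl replicate 1 (adjusted p = 0.0568), siControl replicate 3 (0.0687) or siNELF-C replicate 3 (0.0548), and 2 of 27 probe sets were called lower.

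The oestrogen receptor gene and many of its induced genes were lower in siNELF-C cells. ESR1, which encodes oestrogen receptor alpha, had 6.12, 6.35 and 6.47 in siNELF-C cells and 7.72, 7.63 and 7.71 in control cells. The groups did not overlap, and ESR1 fell 2.59-fold (log2 change -1.37, limma adjusted p = 0.00117). Of 29 genes in the list of the receptor and its induced genes, 16 were lower (55.2%, against 14.9% of all clusters), with a median change of -0.84. Under the 4 scalings 11 were lower (37.9%, against 5.72%). MYB, a proliferation factor that the receptor induces by relieving a block to elongation, had 5.80, 5.52 and 5.71 in siNELF-C cells and 7.26, 7.23 and 7.57 in control cells, and fell 3.19-fold. CXCL12, a secreted chemokine, had 7.90, 7.75 and 7.95 in siNELF-C cells and 9.11, 9.15 and 9.25 in control cells, and fell by 1.30. IGFBP4, which binds insulin-like growth factors, fell by 1.19, and the corepressor NRIP1 fell by 1.19. CA12, a carbonic anhydrase, and TPD52L1 had the highest levels of the members not called (log2 changes -0.50 and -0.49). The progesterone receptor gene PGR had 8.997, 8.76 and 8.90 in siNELF-C cells and 9.99, 9.87 and 10.00 in control cells, and fell 2.09-fold. ESR1 had 6.62, 6.50 and 6.31 in siNELF-A cells and 6.56, 6.61 and 6.70 in siNELF-E cells, so each of these groups also lay below the control arrays.

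As deposited, fewer genes rose than fell, and the largest increase was that of 1 gene of the xenobiotic response, CYP1A1. The aryl hydrocarbon receptor is a ligand-activated transcription factor that induces enzymes which oxidise foreign aromatic compounds, first among them CYP1A1. CYP1A1 had 7.68, 7.46 and 7.43 in siNELF-C cells and 3.06, 2.89 and 2.75 in control cells. The control arrays lay below the 40th percentile of all genes, the groups were far apart, and CYP1A1 rose 24.7-fold (log2 change 4.63, SE 0.125, limma adjusted p = 3.37e-05), with 11 of 11 probe sets higher. The receptor gene AHR had 8.02, 7.99 and 7.99 in siNELF-C cells and 6.71, 6.92 and 7.03 in control cells, and rose 2.16-fold (adjusted p = 0.00165). ALDH1A3, which makes retinoic acid, rose 2.84-fold, and TXNRD1, which keeps thioredoxin reduced, had 9.22, 8.88 and 9.07 in siNELF-C cells and 8.11, 8.07 and 8.19 in control cells and rose 1.91-fold. In all, 5 of 15 genes of the list were higher (33.3%, against 2.27% of all clusters), each under the 4 scalings. Another 2, KEAP1 and GCLM, were lower as deposited only (13.3%, against 14.9%). Because the other scalings moved the median change upward, this contrast between the directions says little. The core GCGTG, to which the receptor binds, was found on either strand within 250 bases upstream in 5 of the 12 genes of the list with a promoter in the RefSeq table (41.7%), against 31.9% of all promoters and 40.2% of those of measured genes. CYP1B1, another enzyme that the receptor induces, was not called: it had 8.06, 7.99 and 7.94 in siNELF-C cells and 8.38, 8.33 and 8.50 in control cells.

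TGFB2, the gene for a transforming growth factor beta ligand, had 6.87, 6.75 and 6.91 in siNELF-C cells and 3.55, 3.41 and 3.52 in control cells, where it lay below the 40th percentile of all genes. It rose 10.2-fold (log2 change 3.35, SE 0.098, limma adjusted p = 3.37e-05). It was the single cluster of 22011 (0.00454%) called in all 4 comparisons of siNELF-C cells, with differences of 2.20 from siNELF-A, 3.15 from siNELF-B (adjusted p = 0.0112) and 2.90 from siNELF-E cells. It was also the single cluster (0.00454%) called against siNELF-B, whose arrays had mean correlations of only 0.934 to 0.962 with each other. This count of 1 became 0 without siNELF-C replicate 1, 2 or 3, without siNELF-B replicate 1 or with a replicate block, 3 without siNELF-B replicate 2 and 5 without siNELF-B replicate 3. Of the 46 genes of the TGF-beta and matrix list, 8 were higher (17.4%, against 2.27% of all clusters), all under the 4 scalings. Another 6 were lower (13%, against 14.9% of all clusters), 1 of them under the 4 scalings (2.17%, against 5.72%). They were FN1, which was the 1 kept, SMAD1 (log2 change -0.81) and the integrin genes ITGA2, ITGB5, ITGB8 and ITGA6. ID1 and ID3, targets of the related BMP signal that block differentiation factors, rose: ID1 had 7.91, 7.88 and 7.89 in siNELF-C cells and 7.16, 6.80 and 6.99 in control cells (1.89-fold), and ID3 had 7.72, 7.25 and 7.63 in siNELF-C cells and 6.47, 6.31 and 6.44 in control cells (2.18-fold). ID2 (log2 change 0.46), BMP4 (-0.45), thrombospondin 1 (THBS1) and the collagen gene COL12A1 were not called.

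Other large increases fell outside these pathways. SAT1, the rate-limiting enzyme of polyamine breakdown, had 8.74, 8.96 and 8.88 in siNELF-C cells and 6.45, 6.32 and 6.53 in control cells, with no overlap, and rose 5.37-fold (adjusted p = 0.000223). Of the 9 polyamine genes, SAT1 was the 1 that rose, and 3 (AMD1, AZIN1 and SAT2) were lower as deposited but not under the 4 scalings. VTCN1, the immune checkpoint ligand B7-H4, had 8.43, 8.16 and 8.36 in siNELF-C cells and 5.27, 5.05 and 5.62 in control cells and rose 7.99-fold. GPRC5A, a retinoic acid-induced membrane receptor, had 8.05, 7.79 and 7.88 in siNELF-C cells and 5.62, 5.40 and 5.16 in control cells and rose 5.71-fold. The adhesion receptor gene ADGRF1 rose by 2.26, the extracellular superoxide dismutase gene SOD3 by 1.91, and CITED2, a coactivator that limits hypoxia signalling, by 1.70. PIK3R3, a regulatory subunit of PI 3-kinase, had 8.16, 7.87 and 8.12 in siNELF-C cells and 6.80, 7.05 and 7.15 in control cells and rose 2.07-fold. TMPRSS2, a membrane protease that androgens induce, had 6.77, 6.70 and 6.54 in siNELF-C cells and 5.43, 5.23 and 5.34 in control cells and rose 2.52-fold.

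Immediate early genes, which are often paused before a stimulus, were mostly not called. Of 23 measured, 2 were higher under the 4 scalings (8.7%, against 2.21% of all clusters). Another 1 was lower as deposited only (4.35%, against 14.9%). FOSL1, which encodes the AP-1 subunit Fra-1, had 5.26, 5.52 and 5.52 in siNELF-C cells and 4.47, 4.61 and 4.07 in control cells and rose 2.08-fold (adjusted p = 0.00557). CCN1, a matricellular protein, had 6.51, 6.62 and 6.62 in siNELF-C cells and 5.82, 5.67 and 5.86 in control cells and rose 1.74-fold. MYC and IER3 had the highest levels of the members not called (log2 changes -0.48 and -0.47). Of 29 NF-kB and inflammatory genes, REL was lower as deposited only, and NFKBIA and RELA were not called (0.12 and 0.11).

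The transcription machinery around NELF was also examined. Of 26 pausing and elongation factors, 7 were lower as deposited (26.9%, against 14.9% of all clusters). Only PAF1, a subunit of the elongation complex of the same name, was lower under the 4 scalings (3.85%, against 5.72% of all clusters). PAF1 had 6.997, 6.80 and 6.93 in siNELF-C cells and 7.96, 7.91 and 7.93 in control cells, and fell 2.03-fold (adjusted p = 0.0014). The list's median change of -0.32 was 0.01 after quantile normalization and 0.03 after centring on the 75th percentile. SUPT4H1, a subunit of DSIF, which pauses polymerase together with NELF, had 8.78, 8.73 and 8.71 in siNELF-C cells and 8.69, 8.65 and 8.73 in control cells and was not called. Of 13 Integrator genes, 6 were lower as deposited (46.2%) and none of these was called under each of the 4 scalings. The siNELF-C arrays all lay below the control arrays in 9 of the 13, against 31.3% of all clusters. They all lay above them in 1, against 15.1%.

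Some genes separated siNELF-C cells from siNELF-A and siNELF-E cells as well as from control. A cluster was counted here when it was called in the same direction against siControl, siNELF-A and siNELF-E. There were 507 lower clusters (2.30%) and 78 higher ones (0.354%), of which 202 (0.918%) and 78 (0.354%) were called in each comparison under the 4 scalings. SiNELF-B was left out of this count because its arrays differed widely from each other, and the choice was made after the values were seen. LBR encodes a protein that anchors heterochromatin at the inner nuclear membrane and is also a sterol reductase. It had 5.94, 6.01 and 6.25 in siNELF-C cells, against 8.11, 8.27 and 7.90 in siNELF-A cells, 8.13, 8.22 and 8.31 in siNELF-E cells and 8.39, 8.67 and 8.72 in control cells. The siNELF-C arrays stood apart from all of these, and LBR was 5.77-fold lower than in control cells (adjusted p = 0.000492), with differences of -2.03 from siNELF-A and -2.16 from siNELF-E cells.

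Sterol synthesis genes were among these. Cholesterol is made through a chain of enzymes under the transcription factor SREBP2, with INSIG1 as its feedback inhibitor. Of 24 cholesterol and fatty acid synthesis genes, 13 were lower than in control cells (54.2%, against 14.9% of all clusters). Under the 4 scalings 5 were lower (20.8%, against 5.72%). Against siNELF-A cells 8 were lower and against siNELF-E cells 14, with list medians of -0.40 and -0.67. Of the 24, 6 (25%) were lower than in control, siNELF-A and siNELF-E cells, and INSIG1, HMGCS1 and SQLE were so under the 4 scalings. Against siNELF-B cells, where 1 cluster of all was called, 0 of the list were called and its median was -0.18. INSIG1 had 5.58, 5.68 and 5.87 in siNELF-C cells, 7.30, 7.22 and 6.86 in siNELF-A cells, 7.47, 7.56 and 7.74 in siNELF-E cells and 7.28, 7.19 and 7.40 in control cells. No array of the 3 other groups lay as low as any siNELF-C array, and INSIG1 was 2.99-fold lower than in control cells (adjusted p = 0.000857). HMGCS1, which makes HMG-CoA, had 6.25, 6.16 and 6.54 in siNELF-C cells and 7.44, 7.57 and 7.64 in control cells and fell 2.36-fold, and SQLE, which makes squalene epoxide, had 8.33, 8.10 and 8.33 in siNELF-C cells and 9.24, 9.40 and 9.502 in control cells and fell 2.18-fold.

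The proteasome, the cell's main protein-degrading complex, gave a similar count that depended on the scaling. Of 24 subunit genes, 13 were lower than in control cells (54.2%, against 14.9% of all clusters). Of the same 24, 12 were lower than in siNELF-A cells and 7 lower than in siNELF-E cells. Of the 24, 7 (29.2%) were lower than in all 3 groups as deposited, and PSMB1 alone was so under the 4 scalings. Against siNELF-B cells 0 of the list were called and its median was -0.02. PSMB1, a core subunit, had 7.50, 7.21 and 7.54 in siNELF-C cells and 8.49, 8.29 and 8.79 in control cells, and fell 2.15-fold (adjusted p = 0.00458). In the list of nuclear lamina and transport genes, 4 of 25 (16%) met the rule, and LBR and the exportin gene XPO4 did so under the 4 scalings.

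On the higher side, 3 of the 15 xenobiotic genes (20%) met the rule, CYP1A1, AHR and ALDH1A3, each under the 4 scalings. CYP1A1 had 3.49, 3.81 and 3.15 in siNELF-A cells and 4.26, 3.71 and 3.71 in siNELF-E cells, all below every siNELF-C array. AHR had 6.46, 6.34 and 5.96 in siNELF-A cells and 6.24, 6.30 and 6.55 in siNELF-E cells, which lay below the siNELF-C and the control arrays. SAT1 had 6.71, 7.02 and 7.44 in siNELF-A cells and 7.80, 8.12 and 8.08 in siNELF-E cells, which placed siNELF-E between siNELF-C and control. It was higher in siNELF-C cells than in both (differences 1.80 and 0.86). TGFB2, VTCN1, GPRC5A, ID1 and TMPRSS2 met the same rule. ID1 differed by 2.44 from siNELF-A and 2.23 from siNELF-E cells, more than its 0.92 from control cells.

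**Figure D5:**
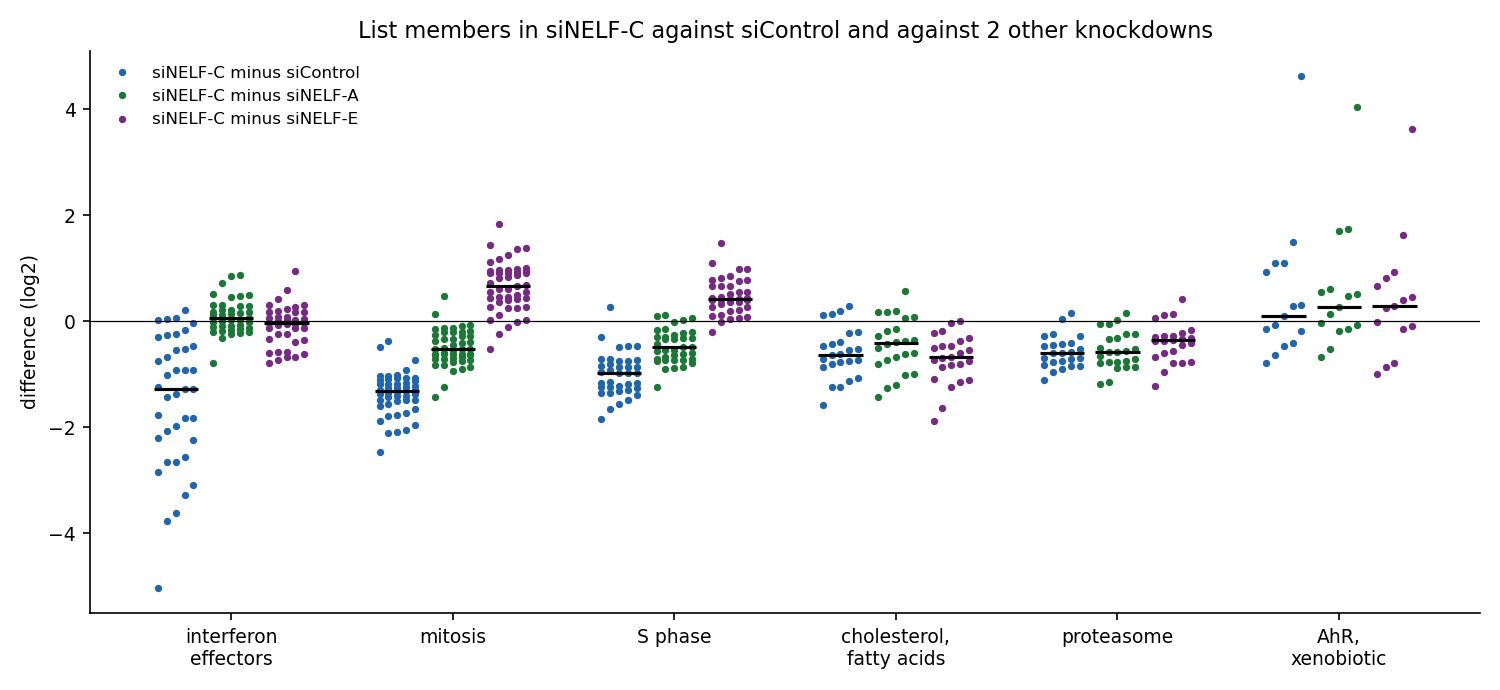
Each point is 1 gene of the list named below it, at its log2 difference of siNELF-C minus siNELF-A (green), siNELF-E (purple) or siControl (blue), and black lines are list medians. The medians of the interferon effectors lie near 0 in the comparisons with siNELF-A and siNELF-E, most mitotic and S-phase genes lie below 0 against siNELF-A and above 0 against siNELF-E, and cholesterol and proteasome genes lie mostly below 0 in all 3.

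Exon usage was tested with limma's diffSplice, which asks whether 1 probe set moved differently from the rest of the gene. Of 155573 probe sets in 9918 genes, 6951 (4.47%) were called at an adjusted p below 0.05 and a relative change of at least 2-fold, 3447 lower and 3504 higher, and 4067 genes held at least 1. The calls became 2765, 4437 and 4405 without siControl replicate 3, 2 and 1. STRADB, a pseudokinase partner of the kinase LKB1, was among those with the largest relative change. The median of its 17 probe sets was 3.01, 3.27 and 3.32 in siNELF-C cells, against 6.08, 6.41 and 6.61 in control cells, with 14 probe sets lower. This is a 9.02-fold fall (limma adjusted p = 4.78e-05), with the siNELF-C medians below the 40th percentile of probe set means (4.24). Its gene-level cluster, in contrast, was not called, and probe set 2522795 had 7.36, 7.23 and 7.39 in siNELF-C cells against 6.56, 7.24 and 6.61 in control cells, with 2 of the 3 siNELF-C arrays above every control array. The median of the STRADB probe sets was 5.80, 5.87 and 5.20 in siNELF-A cells and 6.61, 6.98 and 6.87 in siNELF-E cells, so the siNELF-C arrays stood apart there too.

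The other large usage changes lay in genes that changed as a whole or in single probe sets. In IFI27, probe set 3549588 had 1.999, 1.37 and 1.50 in siNELF-C cells against 7.91, 7.60 and 8.23 in control cells, and was called lower relative to the gene. It lay at 1.46 to 2.95 on the arrays of the other knockdowns, so it was high on the control arrays only. In MX1, probe set 3922120 had 5.63, 6.07 and 5.82 in siNELF-C cells against 6.21, 6.07 and 6.07 in control cells. It nearly held its level while 20 of the 21 probe sets were called lower, and so was 11.2-fold higher relative to the gene. In PRKAG2, a regulatory subunit of the energy sensor AMPK, probe set 3079817 had 1.43, 2.43 and 0.59 in siNELF-C cells against 6.46, 5.63 and 5.16 in control cells. It was called lower relative to the gene, and 2 of the 27 PRKAG2 probe sets were called lower. Probe set 3079817 had 1.68, 2.92 and 0.97 in siNELF-A cells, 2.95, 5.74 and 1.23 in siNELF-B cells and 1.59, 4.50 and 5.465 in siNELF-E cells. No fold is given for the probe sets of IFI27 and PRKAG2, since their siNELF-C values lay below the 25th percentile of probe set means (2.93). The positions of these probe sets in their transcripts were not used here, so no exon is named.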

How the data were processed

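Exon arrays of 30 samples, gene-level and exon-level tables of the same 15 arrays, were used, in 5 groups of 3 arrays that the labels give. The authors deposited log2 values, which per the labels were robust multi-array average (RMA) values that the authors made with ArrayAssist for core exons on build hg18. Its version number is not given in the sources used here. They were used as deposited for 22011 transcript clusters and 287329 probe sets, and 0 value columns went unmatched. Arrays carry no read depth, and precision is limited by having 3 arrays per group.

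Names came from the platform annotation, updated through current RefSeq gene tables (GRCh38.p14), which also gave the promoter sequences. Of the clusters 14432 had 1 symbol, 2408 had several and 5171 were not listed. Where a symbol had several clusters, the one with the highest mean was used. For NELFA and NELFE no gene-level cluster carried the symbol alone, so the median of the probe sets was used, unlike the gene-level test that had been planned.

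The main comparison used limma 3.58.1 (lmFit and eBayes, R 4.3.3, data.table at version 1.17.8) on the 6 siNELF-C and siControl arrays. A call needed a 1.5-fold change and a p below 0.05 after Benjamini-Hochberg adjustment across every cluster. The same fit was run for siNELF-C against each other knockdown. Exon usage was tested with limma's diffSplice, for genes at or above the 40th percentile with at least 3 probe sets at or above the 25th percentile. The scripts were tested on simulated data.

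The members and gene lists were chosen with earlier results of these data known. The rule for named genes took the NELF subunits, the 14 highest and 14 lowest called genes with no overlap between groups and a mean at or above the 40th percentile in at least 1 group, up to 6 called members and 2 uncalled members with the highest means of each list, up to 8 probe sets with changed usage, and up to 6 genes in each direction called against control and each other knockdown. No fold is given for a gene below the 40th percentile in both groups. The alternatives were 3 scalings, other sets of arrays, filters, thresholds, a trended prior, probe set medians as gene values, a replicate block and each array left out in turn.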

Additional observations from a re-analysis of the deposited data

How the results depend on the processing

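No called value of a named gene changed sign under the alternatives run, but values of genes that were not called did under other scalings or with a replicate left out, and some list medians did under 75th percentile centring or quantile normalization. The 3781 called clusters became 1369 with all 15 arrays in one fit, 1367 with the interquartile range as a covariate as well, 5999 with no fold minimum, 1271 with a 2-fold minimum and 1747 when a call was required under all 4 scalings, an alternative chosen after seeing the data. Leaving out 1 array gave 2923 to 3809. The 3281 lower clusters became 1687 after quantile normalization, 1294 after 75th percentile centring, 1166 with all 15 arrays, 690 with the covariate, 1157 at 2-fold and 1260 under all 4 scalings, and 2559 to 3264 without 1 array. The 500 higher clusters became 1233 (quantile), 1193 (median), 3643 (75th percentile), 203 (all 15 arrays), 1255 (no fold minimum) and 114 (2-fold), and 364 to 550 without 1 array. The 22556 called probe sets became 3303 with all 15 arrays and 111 to 13979 without 1 array (111 without siControl replicate 3), and 40.1% and 46.5% of them were higher after quantile normalization and median centring against 14.2% as deposited. The 6951 usage calls became 885 with all 15 arrays and 2765 to 7816 without 1 array, the lowest without siControl replicate 3. The 1 cluster called against control and each other knockdown became 30 (quantile), 10 (median), 16 (75th percentile), 62 (all 15 arrays) and 585 with siNELF-B left out, and 0 to 5 without 1 array. The cause of these shifts was not tested.

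Replicate numbers did not pair the arrays: same-numbered siNELF-C and siControl arrays deviated from their group means with correlations of 0.0008, 0.06 and 0.10. With the replicate block there were 3773 called clusters, 5391 called probe sets, 7397 usage calls and 0 clusters called against control and each other knockdown. Of 281 named results, 91 lost a call under at least 1 alternative and 20 gained one.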

Other observations

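Of the 29 genes in the list of ATF4 and the unfolded protein response, 10 were lower (34.5%, against 14.9% of all clusters). Under the 4 scalings 5 were lower (17.2%, against 5.72%). PHGDH, the entry enzyme of serine synthesis, had 7.43, 7.37 and 7.48 in siNELF-C cells and 9.17, 9.02 and 8.99 in control cells, and fell 3.1-fold (limma adjusted p = 0.000569). SHMT2, its mitochondrial partner that splits serine, had 8.08, 7.96 and 8.01 in siNELF-C cells and 9.45, 9.15 and 9.23 in control cells, and fell 2.4-fold. PSAT1, the next enzyme after PHGDH, fell by 1.19. The chaperone genes HSPA5 and PDIA6 were not called (log2 changes -0.09 and -0.46). Of 26 amino acid transporters, 10 were lower (38.5%, against 14.9% of all clusters) and 2 were higher (7.69%, against 2.27%). Under the 4 scalings 4 (15.4%, against 5.72%) and 2 (7.69%, against 2.21%) held. The cationic carrier SLC7A1 fell by 1.04 and the glutamate carrier SLC1A1 fell by 1.07, whereas the neutral carriers SLC38A2 and SLC38A1 were not called (0.48 and 0.52).

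Splicing factors, lysosomal genes and guidance molecules were also measured. Of 29 SR and hnRNP splicing factors 14 were lower (48.3%, against 14.9% of all clusters) and 5 were lower under the 4 scalings (17.2%, against 5.72%). SRSF10 fell by 1.17 and SRSF3 by 1.07. Of 28 lysosome and autophagy genes 8 were lower (28.6%, against 14.9% of all clusters) and 1 was higher (3.57%, against 2.27%). Under the 4 scalings 3 (10.7%, against 5.72%) and 1 (3.57%, against 2.21%) held. Among them were the calcium channel gene MCOLN1, which fell by 1.01, and ATP6V0D1, a subunit of the proton pump, which fell by 1.00. IL6ST, the shared receptor chain gp130, had 8.60, 8.35 and 8.71 in siNELF-C cells and 9.33, 9.61 and 9.63 in control cells, and fell 1.96-fold. Of the neural adhesion and guidance genes, L1CAM, a homophilic adhesion molecule, had 6.64, 6.61 and 6.60 in siNELF-C cells and 5.35, 5.07 and 5.17 in control cells, and rose 2.67-fold. NTN4, a secreted netrin, had 4.30, 4.01 and 4.08 in siNELF-C cells and 2.33, 2.39 and 2.69 in control cells and rose by 1.66, and ROBO1, a guidance receptor, fell by 1.02. Of 27 hypoxia and glycolysis genes 2 were lower (7.41%, against 14.9% of all clusters) and 2 were higher (7.41%, against 2.27%). PDK1 and BNIP3L were lower, as deposited only. NDRG1 rose by 0.82 and DDIT4, an mTOR inhibitor, rose by 0.82, whereas the glycolytic genes ENO1 and LDHA were not called. In this list the siNELF-C arrays all lay below the control arrays in 15 genes (31.3% of all clusters) and all above them in 5 (15.1%). Most genes of oxidative phosphorylation (39 of 44) and of the cytosolic ribosome (16 of 18) were not called, as were 18230 of all 22011 clusters. In 21 of the 44 oxidative phosphorylation genes the siNELF-C arrays all lay below the control arrays, against 31.3% of all clusters. In 1 gene they all lay above them, against 15.1%. The median change of that list was -0.30, against -0.08 over all clusters.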
